A study of Mus musculus with 4 samples.

Results

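Ependymal cells of the mouse hippocampus were selected from single-cell RNA sequencing by a rule on counts of unique molecular identifiers (UMIs), each of which stands for a captured RNA molecule. A cell with at least 200 genes was a member when Tmem212, Ccdc153, Meig1 and Dynlrb2 together had at least 4 UMIs, Ttr had under 50, and P2ry12, Cx3cr1, Mog, Pdgfra and Cldn5 together had at most 2. Of 6281 cells, 105 were members (1.67%). The libraries came from 4 male mice aged 3 months on a C57BL/6J background, of which 2 were WT littermates and 2 were Dp(10)2Yey, hemizygous for a duplication of the Mmu10 segment from Prmt2 to Pdxk, with 1 library per mouse and no pooling. The hippocampus was dissociated with an enzymatic kit for adult brain that includes removal of debris, on 2 consecutive days with 1 mouse of each genotype per day, and which replicate numbers share a day was not stated. The 10x Genomics 3′ libraries were counted with Cell Ranger 3.0.2 against a custom mm10 reference. The libraries of WT replicates 1 and 2 held 3002546 and 6848466 UMIs, and those of Dp(10)2Yey replicates 1 and 2 held 5112759 and 9612011. Every series of 4 values below is in the order WT replicate 1, WT replicate 2, Dp(10)2Yey replicate 1 and Dp(10)2Yey replicate 2. Across the 6 pairs of libraries 8 cells shared a barcode with a cell of another library. In 0 of them both cells were members, and in 1 a member shared it with another cell.

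Ependymal cells line the brain ventricles as a single sheet and carry tufts of motile cilia whose beating moves cerebrospinal fluid. A motile cilium is built on microtubule doublets, bent by dynein arms whose stroke is coordinated by radial spokes, a central pair and nexin links, and it is assembled by carriers that run along the doublets. The forkhead factor Foxj1 and factors of the RFX family switch on these genes, and choroid plexus cells, which secrete the fluid, form an epithelium that adjoins the ependymal cells. The comparison of genotypes asks which RNAs differ in these cells with the additional copy of the segment.

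WT replicate 1 stood apart in the number and in the depth of its members. It gave 44 of the 105 members (41.9%), WT replicate 2 gave 14, Dp(10)2Yey replicate 1 gave 16 and Dp(10)2Yey replicate 2 gave 31. These were 4.31% (95% Clopper-Pearson interval 3.15 to 5.74), 0.83% (0.455 to 1.39), 1.18% (0.676 to 1.91) and 1.40% (0.952 to 1.98) of the cells of the 4 libraries. WT replicate 1 was the highest and WT replicate 2 the lowest, so that the genotypes overlapped. The mean share was 2.57% ± 2.46 (SD, n = 2) in WT and 1.29% ± 0.153 (SD, n = 2) in Dp(10)2Yey, a difference of -1.28 percentage points (two-sided exact permutation test, p = 1.0, where the smallest p that 2 libraries against 2 allow is 0.333). Without WT replicate 1 the difference was 0.459, without WT replicate 2 it was -3.02, and with at least 8 UMIs of the 4 genes it was -0.625. The median member had 1248, 6746.5, 4432 and 11883 UMIs in the 4 libraries, while the other cells had medians of 2232, 3657.5, 3385 and 3662. Members were thus shallower than the other cells of WT replicate 1 and deeper than those of the remaining libraries. When both the members and the cells counted were limited to at least 2000 UMIs, a limit chosen after seeing the data, 9 of 518 cells (1.74%), 13 of 1191 (1.09%), 13 of 868 (1.5%) and 27 of 1608 (1.68%) were members. At that depth the share of WT replicate 1 lay close to that of Dp(10)2Yey replicate 2, and the difference between genotypes was 0.174. The deepest member of a library held from 10.8% (Dp(10)2Yey replicate 2) to 27.0% (WT replicate 2) of the UMIs of its members.

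Around the threshold, 16 other ependymal genes from a list of 20, which the rule did not read, show how the cells just inside and just outside it looked. Levels here and elsewhere are in CPM, the UMIs of a gene as a part of all UMIs of the cells named, scaled to a common total and not divided by transcript length. Among cells that met the limits on Ttr and on the 5 exclusion genes, the summed level of the 16 genes was 1391 in 2436 cells with 0 UMIs of the 4 genes of the rule, 1070 in 41 cells with 1 UMI, 2387 in 13 cells with 2 UMIs and 4009 in 16 cells with 3 UMIs. It was 11618 in 9 members with 4 UMIs, 14343 in 18 members with 5 to 7 and 16592 in 78 members with 8 or more. The pooled level at 2 UMIs included 1 cell of Dp(10)2Yey replicate 1 with 27239 UMIs, at 294. In the other libraries the cells with 2 UMIs were at 7865 (WT replicate 1), 2589 (WT replicate 2) and 4742 (Dp(10)2Yey replicate 2). The step between 3 and 4 UMIs was not sharp in WT replicate 1, where 10 cells just outside the threshold were at 9887 and 6 members just inside it at 15242. In WT replicate 2 the 1 cell with 3 UMIs was at 5838, above the 1 member with 4 UMIs at 3822. That member held 20 UMIs of Ttr, the transthyretin that choroid plexus cells secrete. The highest Ttr count of a member was 0 in WT replicate 1 and 1 in each Dp(10)2Yey library. The limit on Ttr removed 7 cells, whose levels of the 16 genes were 2207 to 4813, and the limit on the exclusion genes removed 3 cells, at 16474, 12519 and 14894.

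**Figure D1:**
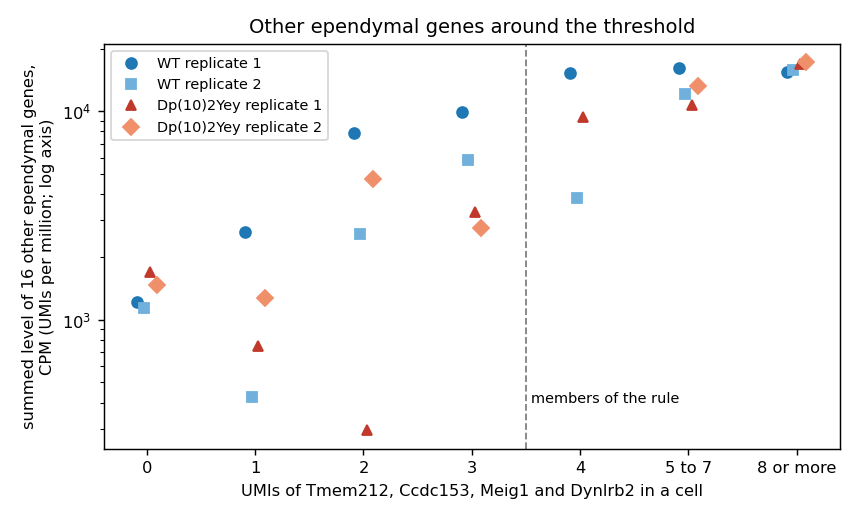
Summed level of 16 ependymal genes outside the rule (CPM, log axis) against the UMIs of the 4 genes of the rule in a cell, for cells within the limits on Ttr and the exclusion genes, with 1 point per library. With 8 or more UMIs the 4 libraries sat between 15417 and 17167, and with 0 UMIs between 1135 and 1696.

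The genes that chose the members were high in every library, which is a description of the rule and not a finding. The level of Tmem212 in members was 2565, 1934, 1867 and 2161. Ccdc153 was at 2211, 2143, 1867 and 2263, Meig1 at 955, 902, 913 and 1054, and Dynlrb2, a light chain shared by dyneins, at 1102, 1039, 923 and 938. Rarres2, which encodes the secreted ligand chemerin and was not read by the rule, was at 3081, 2828, 3102 and 3050, beside 17.6, 12.5, 14.1 and 17.2 in all other cells. A marker of ependymal cells outside the rule was thus found in the members of each library.

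Regulators of motile cilia came next in the order of roles. The level of Foxj1 was 647, 657, 542 and 599 in members and 7.76, 11.3, 10.9 and 5.45 in all other cells. Both Dp(10)2Yey libraries were below both WT ones, and the log2 fold change of Dp(10)2Yey over WT, here and elsewhere, was -0.21 (standard error 0.23, edgeR adjusted p = 0.9922), so the difference did not pass. A UMI of Foxj1 was found in 86 of 105 members (81.9%), with a median of 3599 UMIs, and in 2 of 2094 microglia, with a median of 4065.5. Myb, a factor of multiciliated cells, was at 131, 188, 141 and 146 in members, with overlapping genotypes. Rfx4, of the RFX family, was at 123, 137, 171 and 144 in members and at 145, 66.5, 125 and 133 in astrocytes, so that its levels in both classes overlapped. Over the list of 29 regulators, 28 were in the files, 24 had a UMI in members and 8 had enough to be tested, with a median log2 change of 0.01.

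The 20 genes with the highest ratio of members to all other cells included the 4 genes of the rule and 16 others. As the members were chosen on this contrast, the ratios are a description and have no test. The 16 lay between 331 and 3102 in members of every library and at most at 17.6 in the other cells, and their log2 ratio, with 10 CPM added to both sides, was at least 4.84 in each library. They varied little between mice, with a median of 1.38 and a maximum of 1.84 for the highest over the lowest library. Among the proteins of the cilium, Rsph1, a radial spoke head protein, was at 709, 750, 713 and 878, with Dp(10)2Yey replicate 2 the highest. Ak7, an adenylate kinase of motile cilia, was at 493, 527, 331 and 552, with Dp(10)2Yey replicate 1 the lowest. Sntn, which encodes sentan of the ciliary tip, was at 578, 332, 361 and 497, so that WT libraries were both the highest and the lowest. Outside the cilium, Acta2, the actin of smooth muscle, was at 894, 606, 934 and 751 in members and at most at 7.07 in the other cells. Mia, which encodes a small secreted protein, was at 1325, 1205, 1164 and 1242, Ucma at 485, 440, 803 and 436, and the keratin gene Krt15 at 416, 505, 683 and 464. Ucma and Krt15 were highest in Dp(10)2Yey replicate 1 and had overlapping genotypes. All 16 were tested between genotypes, and the 2 genes called among 2579 (0.0775%, edgeR, adjusted p under 0.01) were not among them. With 1 CPM added in place of 10, 12 of the 20 genes stayed among the 20 of highest ratio, and with 50 added 13 did.

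**Figure D2:**
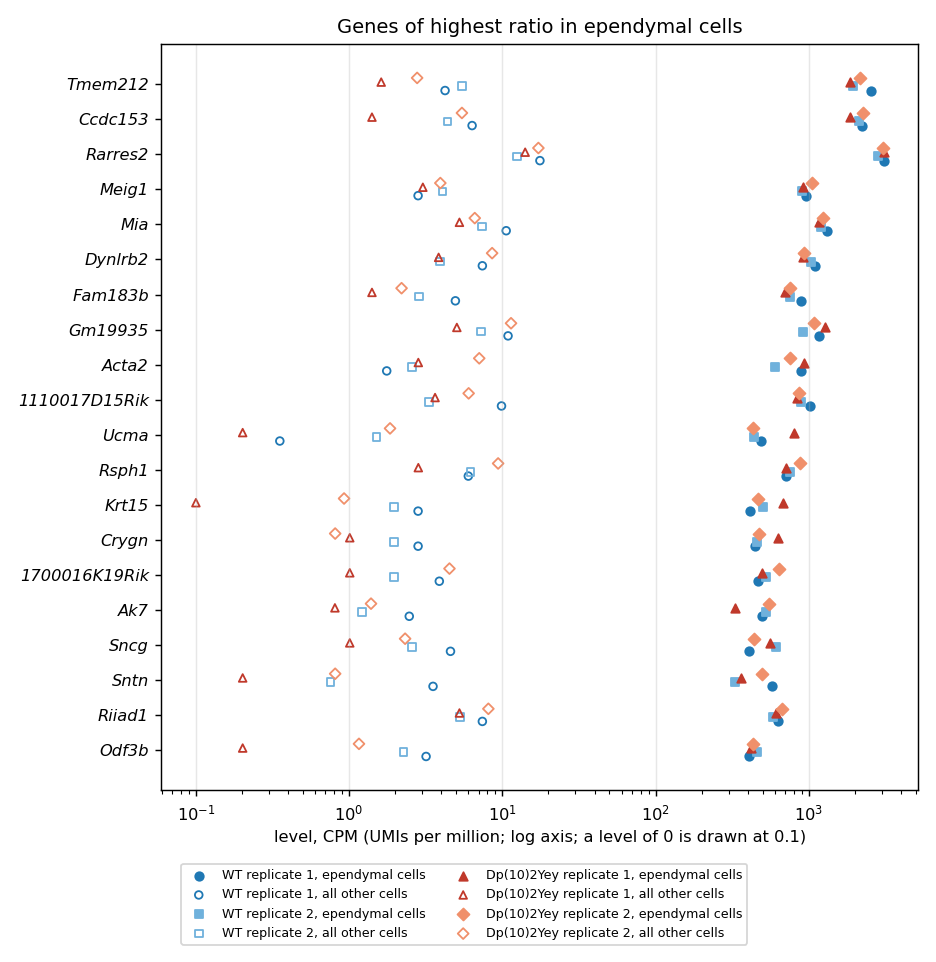
Level (CPM, log axis) of the 20 genes of highest ratio in ependymal cells (filled symbols) and in all other cells (open symbols) of each library. The 16 genes outside the rule sat between 331 and 3102 in members and at or under 17.6 in the other cells.

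Because genes of motile cilia were high together in the members, their promoters are shown with the letters that RFX and forkhead factors are known to bind. The motifs searched on both strands were GTTGCCAT, part of the X-box of RFX factors, its shorter core GTTGCC, which every GTTGCCAT match also contains, and GTAAACA, a forkhead motif. In RefSeq promoters of GRCm38.p6, from 250 bases before to 50 bases after a gene's start, GTTGCCAT was in 14 of 170 promoters of the cilium lists (8.24%) and in 1.35% of all 32851 promoters. GTTGCC was in 71 of the 170 (41.8%) and in 12.5% of all, and GTAAACA was in 8 of the 170 (4.71%) and in 3.65% of all. The promoters matched 150 of the 198 symbols in the cilium lists and 15 of the 20 genes of highest ratio. Of the 18 promoters of the latter genes, 1 held GTTGCCAT (5.56%), 5 held GTTGCC (27.8%) and 2 held GTAAACA (11.1%). Sntn, one of the genes of highest ratio, held GTTGCCAT and GTAAACA. Its stretch of 250 bases before the start (chr14:13670626-13670875, plus strand) is given whole. GTAAACA begins 236 and GTTGCCAT 66 bases before the start. Windows of 30 bases are given for 6 cilium genes with GTTGCCAT, to let the matches be compared, at chr3:67373981-67374010 (Mlf1, plus strand), chr6:124779748-124779777 (Lrrc23, minus), chr7:83794862-83794891 (Cfap161, minus), chr16:33056187-33056216 (Iqcg, minus), chr16:44394767-44394796 (Cfap44, plus) and chr4:155409192-155409221 (Cfap74, plus), and for Ak7 with GTAAACA at chr12:105705840-105705869 (plus). The window of Mlf1 also holds GTAAACA, on the opposite strand. Each run reads 5′ to 3′ along the gene's strand, and capitals mark GTTGCCAT and GTAAACA, of which the match in Cfap161, Cfap44 and Ak7 lies on the opposite strand.
Sntn: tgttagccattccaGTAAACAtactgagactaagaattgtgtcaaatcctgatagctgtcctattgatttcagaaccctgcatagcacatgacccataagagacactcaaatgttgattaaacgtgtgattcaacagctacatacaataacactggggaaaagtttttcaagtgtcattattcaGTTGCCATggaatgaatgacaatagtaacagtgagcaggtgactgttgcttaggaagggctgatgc
Mlf1: TGTTTACagagGTTGCCATagcagccgagc
Lrrc23: gtcccgcccctGTTGCCATaacaacaataa
Cfap161: gcctggtcgtcATGGCAACgaagcacgcta
Iqcg: ttgcgcgacgcGTTGCCATagctaccgatt
Cfap44: gggacgttgctATGGCAACcgcagtaaacg
Cfap74: agcagccttccGTTGCCATggagctgcgcg
Ak7: agtagagaaatTGTTTACccaagcagagcg
A match is a description of the letters and does not show that a factor binds there.

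The machinery of the cilium made up a like part of the members' RNA in each mouse. The 182 genes of 6 cilium lists that were in the files, which leave out the genes of the rule, summed to a level of 28409, 31096, 27052 and 32132 in members. The same genes summed to 8163, 5088, 6485 and 8653 in choroid plexus cells and to 2525, 2376, 2630 and 2887 in astrocytes. The choroid plexus cells numbered only 7, 15, 6 and 26, so their levels here and below rest on few cells. Within each genotype 1 library lay low and 1 high, and the genotypes overlapped. Of the 182 genes, 176 had a UMI in members and 119 had enough to be tested, with a median log2 change of 0.00 beside 0.00 for all 2579 genes. Of the 119, 58 had a fold change above 0, beside 50% of all genes tested. By edgeR 0 were called, with 1 at an unadjusted p under 0.05 beside 3.72% of all genes, and DESeq2 called 0 of all genes tested. Both Dp(10)2Yey libraries were above both WT ones for 19 of the 119, beside 17.7% of all genes, and below them for 13, beside 12.9%. With 1 library left out at a time the median was between -0.10 and 0.10, over 125 to 132 genes tested. The cilium share of a member's UMIs had medians of 2.65%, 3.12%, 2.68% and 3.15% in the 4 libraries, and its lowest value, 0.722%, was in WT replicate 1.

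Among the motors, the dynein arm list without Dynlrb2 of the rule summed to 4283, 4920, 4146 and 5035. The heavy chain gene Dnah6 was at 293, 685, 371 and 433, with WT replicates the lowest and the highest. Dnah12, another heavy chain, was at 247, 296, 171 and 284, with Dp(10)2Yey replicate 1 the lowest. Over the 22 tested genes, also without Dynlrb2, the median log2 fold change was -0.03, and 0 were called, beside 0.0775% of all genes. Factors that assemble the arms or set their spacing summed to 940, 1291, 1084 and 1176, of which Ccdc39 was at 177, 325, 141 and 243. These genes had a median of 0.10 over 7 tested.

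The genes of the radial spoke and central pair list summed to 5431, 7006, 5240 and 6881, where replicate 2 of each genotype was the higher. The central pair gene Cfap54 was at 393, 527, 381 and 478, and Spef2 at 324, 404, 281 and 340. Rsph4a, a spoke head protein, was at 262, 390, 231 and 345 and followed the same order of libraries. The list's median log2 fold change was -0.10 over 24 tested genes. The nexin link and doublet list summed to 11108, 11147, 10088 and 11957, with a median of 0.01 over 34 tested genes. Tppp3, which promotes the joining of tubulin, was at 755, 923, 883 and 947 in this list, and Cfap126, which positions basal bodies, at 578, 505, 622 and 569. The genotypes overlapped in both.

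Carriers of cilium transport summed to 4607, 4444, 4386 and 4930, with a median log2 fold change of -0.03 over 24 tested genes. Ift43 was at 308, 238, 391 and 389, with both Dp(10)2Yey libraries the higher, and its log2 fold change was 0.48 (standard error 0.26, edgeR adjusted p = 0.9922). Ift46, the 1 cilium gene with an unadjusted p under 0.05, was at 223, 173, 141 and 121, with both Dp(10)2Yey libraries the lower, and its log2 fold change was -0.68 (standard error 0.33, edgeR adjusted p = 0.9922). Both genes encode parts of the transport trains, and neither difference passed the test. Tubulins, which form the doublets, and enzymes that modify them summed to 6987, 7200, 7448 and 7654, led by Tuba1a at 2827, 2821, 3082 and 2973. Both Dp(10)2Yey libraries were the higher in this sum. The median over 8 tested genes was 0.09, with 0 called, beside 0.0775% of all genes.

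**Figure D3:**
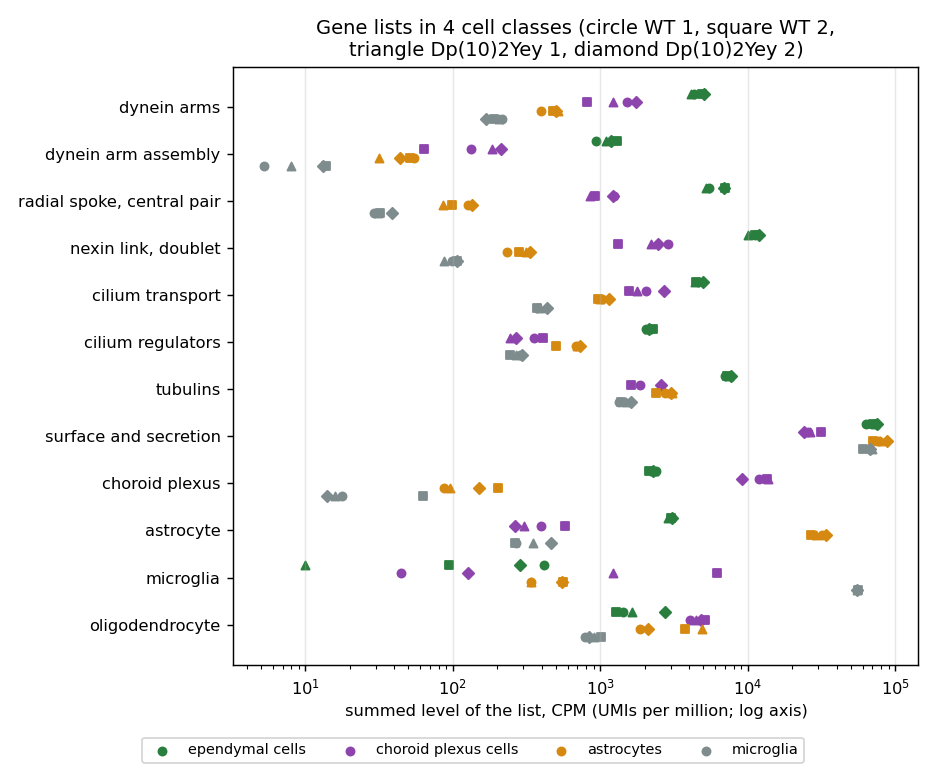
Summed level of 12 gene lists without the genes that the rule reads (CPM, log axis) in ependymal cells, choroid plexus cells, astrocytes and microglia, with 1 symbol per library. For the nexin link and doublet list ependymal cells sat between 10088 and 11957, and choroid plexus cells between 1325 and 2884. The choroid plexus cells numbered only 7, 15, 6 and 26 in the 4 libraries.

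Genes of the cell surface and of secretion were shared in part with neighbouring classes. Dbi, which encodes an acyl-CoA-binding protein, was at 15930, 16904, 18600 and 18027 in members and at 3391, 2428, 3445 and 3187 in astrocytes. Nnat was at 2226, 3030, 2530 and 3094, and Vim, an intermediate filament gene, at 1048, 1457, 1696 and 1568. Dbi and Vim were the higher in both Dp(10)2Yey libraries, and neither was called. The water channel gene Aqp4 was at 863, 685, 532 and 693 in members and at 764, 622, 583 and 672 in astrocytes, so that its levels in both classes overlapped. The glutamate transporter gene Slc1a2 was at 200.3, 289, 271 and 243 in members and between 8249 and 10189 in astrocytes, which it helped to define. The folate receptor gene Folr1 was at 300.4, 267, 351 and 268 in members and at 488, 705, 734 and 338 in choroid plexus cells. Kl, which marks the latter, had 0 UMIs in 3 libraries of members and 7.21 CPM in WT replicate 2. Folr1 and Kl helped to define the choroid plexus cells. Of the 38 tested genes of the surface and secretion list 19 had a fold change above 0, beside 50% of all genes tested, with a median of 0.00, and 0 were called by edgeR, with 2 at an unadjusted p under 0.05 beside 3.72%. Among these was S100b, which lies in the duplicated segment.

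The duplicated segment (GRCm38, chr10:76207222-78464975) served as the check of genotype within the members. Of the 62 genes annotated as protein-coding within it, 61 were in the files, 29 had a UMI in members and 9 had enough to be tested. The authors give a lower count, limited to orthologs of genes on the human chromosome trisomic in Down syndrome. The 29 genes summed to a level of 2057, 2150, 3282 and 3379, so both Dp(10)2Yey libraries were above both WT ones. Their mean was 2103 ± 65.9 (SD, n = 2) in WT and 3330 ± 68.0 (SD, n = 2) in Dp(10)2Yey, a ratio of 1.58, and the 20 genes that were not tested gave a ratio of 1.49. S100b, a calcium-binding protein of glia, was at 863, 880, 1536 and 1333. Its libraries did not overlap between genotypes, and its log2 fold change was 0.69 (standard error 0.23, edgeR adjusted p = 0.8499). Pofut2, an enzyme that adds fucose to secreted proteins, was at 61.6, 64.9, 151 and 166, with a log2 fold change of 1.30 and no overlap (standard error 0.42, edgeR adjusted p = 0.8499). Rrp1, of ribosome assembly, was at 154, 130, 271 and 271, at 0.89 on the log2 scale (standard error 0.31, edgeR adjusted p = 0.8517). In these genes too both Dp(10)2Yey libraries were the higher. Sumo3, a ubiquitin-like modifier, was at 61.6, 50.5, 141 and 102, and Adarb1, an RNA-editing enzyme, at 30.8, 57.7, 90.3 and 91.1. Of the 9 tested genes 7 had both Dp(10)2Yey libraries above both WT libraries, beside 17.7% of all genes, and the exceptions were Agpat3 (139, 101, 100.4 and 160) and Pfkl (100.1, 173, 141 and 152), whose log2 fold changes were 0.21 and 0.07. Agpat3 was at -0.20 without Dp(10)2Yey replicate 2, and Pfkl at -0.23 without WT replicate 1. The median log2 fold change of the 9 was 0.69, beside 0.00 for all genes tested, and by edgeR 0 were called, with 4 at an unadjusted p under 0.05 beside 3.72% of all genes. The same 9 genes had a median of 0.65 in the other cells, and the test of a genotype difference between members and other cells called 0 of 30 genes of the segment, beside 0.0316% of all genes, which does not show that the segment changed alike in both. Without WT replicate 1 there were 13 tested genes of the segment in members, with a median of 0.70.

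**Figure D4:**
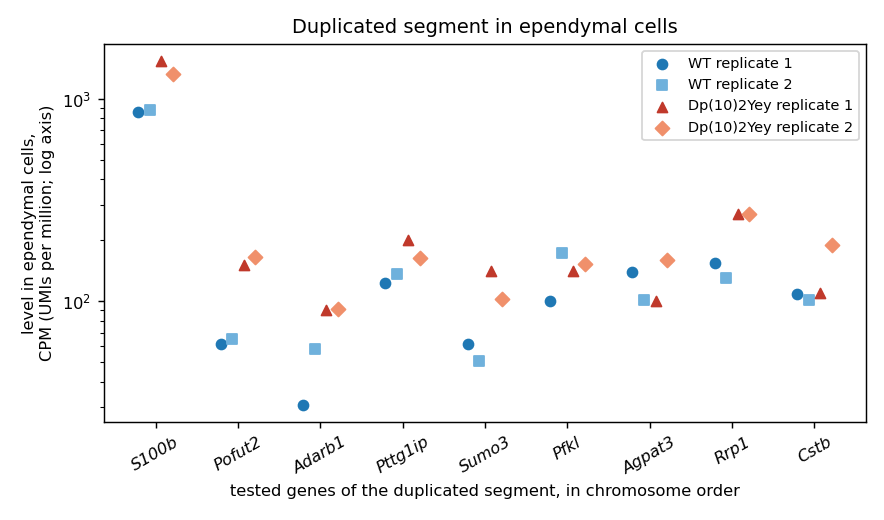
Level in ependymal cells (CPM, log axis) of the 9 tested genes of the duplicated segment, with 1 point per library. For 7 genes both Dp(10)2Yey points lie above both WT points, and for Pfkl and Agpat3 the genotypes overlap.

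Across all genes the genotype comparison in members called 2 of 2579 genes at an adjusted p under 0.01 (edgeR), 1 higher and 1 lower, while 96 had an unadjusted p under 0.05. Gm26870 (chr9:3000282-3038313), annotated as a long non-coding RNA at the start of the assembled chromosome, was at 7.7, 28.9, 90.3 and 210 in members. Both Dp(10)2Yey libraries were above both WT ones, and the log2 fold change was 3.13 (standard error 0.54, edgeR adjusted p = 2.146e-05). Of its 76 UMIs in Dp(10)2Yey replicate 2, however, 56 came from 1 member with 16337 UMIs. In astrocytes of the same libraries it was at 529, 218, 306 and 1825, also highest in Dp(10)2Yey replicate 2. Fos (chr12:85473890-85477273), an early response factor, was at 77.0, 260 and, in the Dp(10)2Yey libraries, 20.1 and 38.6. Both WT libraries were the higher, and the log2 fold change was -2.34 (standard error 0.44, edgeR adjusted p = 0.000154). Here 35 of the 36 UMIs of WT replicate 2 came from 1 member with 9265 UMIs and 93 UMIs of the genes of the rule. Most UMIs of each gene in these 2 libraries were thus in 1 cell. Without 3 members chosen, after the data were seen, for holding most UMIs of a called gene, neither gene had enough UMIs to be tested, which follows from that choice. DESeq2 called 0 genes, with Gm26870 at 3.03 and Fos at -2.44, and the fit with replicate number as a block called 0, with 2.94 and -2.66, so that the fold changes stayed near those above. Without members over 20% mitochondrial UMIs neither gene was tested and 0 were called. With at least 8 UMIs of the genes of the rule, with 0 UMIs of the exclusion genes, or with members of at least 2000 UMIs, the 1 call was higher in Dp(10)2Yey and Fos was not tested. Every fit with a library left out, here and below, sets 1 library against 2, so its spread comes from the other genotype alone. Without WT replicate 1 Fos was at -2.92, and Gm26870 was at 2.54 and did not pass. Without WT replicate 2 Gm26870 was at 4.34, and Fos was at -1.25 and did not pass. Without Dp(10)2Yey replicate 1 Fos was at -2.18 and Gm26870 at 3.4. Without Dp(10)2Yey replicate 2 Fos was at -2.97 and did not pass, and Gm26870 was not tested.

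The member of WT replicate 2 that held most of Fos was high in a whole group of early response genes. In it the 38 genes of a list of the response to dissociation made up 220 UMIs, 2.37% of its UMIs, while the other members of that library had a median of 0.294% and a maximum of 0.429%. It also held 31 of the 48 UMIs of Jun and 25 of the 37 of the phosphatase gene Dusp1 in its library. Of its UMIs 3.66% came from cilium genes, the highest share among the members of WT replicate 2. The dissociation list summed to 3705, 4502, 2710 and 3436 in members, with both Dp(10)2Yey libraries the lower, but without this 1 member WT replicate 2 was at 3124 and the genotypes overlapped. It summed to 60207, 59527, 56121 and 62624 in microglia. Of 11 tested genes 8 had a fold change below 0, beside 50% of all genes tested, with a median of -0.42, and 1 was called (Fos), beside 0.0775%. An unadjusted p under 0.05 was reached by 4, beside 3.72%, the others being Dusp1, Nfkbia, an inhibitor of NF-κB, and Jun, at 285, 346, 201 and 177 (log2 fold change -0.82, standard error 0.28, edgeR adjusted p = 0.8517). Without the 3 members Jun was at -0.24 and the median of the list at -0.15. A list of 73 genes of TNF signaling, which shares Fos, Jun, Dusp1 and Nfkbia with it, had a median of -0.28 over 17 tested genes, and -0.06 without the 3 members. The sums of the dissociation list, without this member, had the same order of libraries as those of a microglia list outside the rule (416, 93.8, 10.0 and 284). In WT replicate 1 both were higher in members under 2000 UMIs (4427 for dissociation and 1055 for microglia) than in deeper ones (3397 and 143). In Dp(10)2Yey replicate 2 dissociation was instead lower in members under 2000 UMIs (1668 against 3454), and microglia nearly level (278 and 284). WT replicate 2 and Dp(10)2Yey replicate 1 had only 1 and 3 members under 2000 UMIs. The parts of dissociation and of microglia RNA in these values were not tested.

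Whether a genotype difference in members differed from that in all other cells of the same libraries was tested for 12674 genes, of which 4 passed an adjusted p of 0.01 (0.0316%), with 384 at an unadjusted p under 0.05 (edgeR). They were Mag, Fos, Cldn11 and Ttr, of which Ttr is read by the rule and is given here only as a name. Mag encodes a glycoprotein of myelin, and its UMIs in members numbered 0, 0, 1 and 57. All 57 were in 1 member of Dp(10)2Yey replicate 2 with 27114 UMIs and 6700 genes, so that the call (edgeR adjusted p = 5.847e-06) rested on that cell. Against a floor of 3 UMIs over the WT group, Mag was at least 11.2-fold higher in Dp(10)2Yey members. Cldn11, a tight junction gene of myelin, had 28 UMIs in Dp(10)2Yey replicate 2 and 0 in each of the other libraries, at least 5.42-fold higher (edgeR adjusted p = 0.002327), and 27 of the 28 were in the same member. In that member a list of 18 oligodendrocyte genes outside the rule made up 1.95% of the UMIs, against a median of 0.13% in the other members of that library. It had 128 UMIs of the genes of the rule and 3.05% from cilium genes, and Scrublet called 0 of the 105 members doublets. It also had 2 UMIs of Mog, an oligodendrocyte gene, and so lay at the limit of 2 that the rule sets for the exclusion genes. Oligodendrocyte RNA in this cell moved with both calls, and its part was not tested. For Fos the log2 difference between members and other cells was -2.32 (edgeR adjusted p = 0.000141), and it did not pass without WT replicate 2 (-1.03, adjusted p = 1.0) or without Dp(10)2Yey replicate 2 (-2.91, adjusted p = 0.3331). Mag did not pass without either of these libraries (adjusted p = 1.0 in both), and Cldn11 did not pass without WT replicate 1 (adjusted p = 0.2873), WT replicate 2 or Dp(10)2Yey replicate 2 (adjusted p = 1.0 in both). The UMIs of Dp(10)2Yey replicate 2 remained in the fits without a WT library, while without Dp(10)2Yey replicate 2 members had 1 UMI of Mag and 0 of Cldn11. With astrocytes in place of all other cells Fos passed (-3.02, edgeR adjusted p = 5.424e-05), and Mag and Cldn11 did not (adjusted p = 1.0 for both). Leaving out WT replicate 2 gave 1 call and leaving out Dp(10)2Yey replicate 1 gave 8. Without the 3 members, which were chosen for holding UMIs of called genes, there were 3 calls, among them Stoml3 and Ttr.

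**Figure D5:**
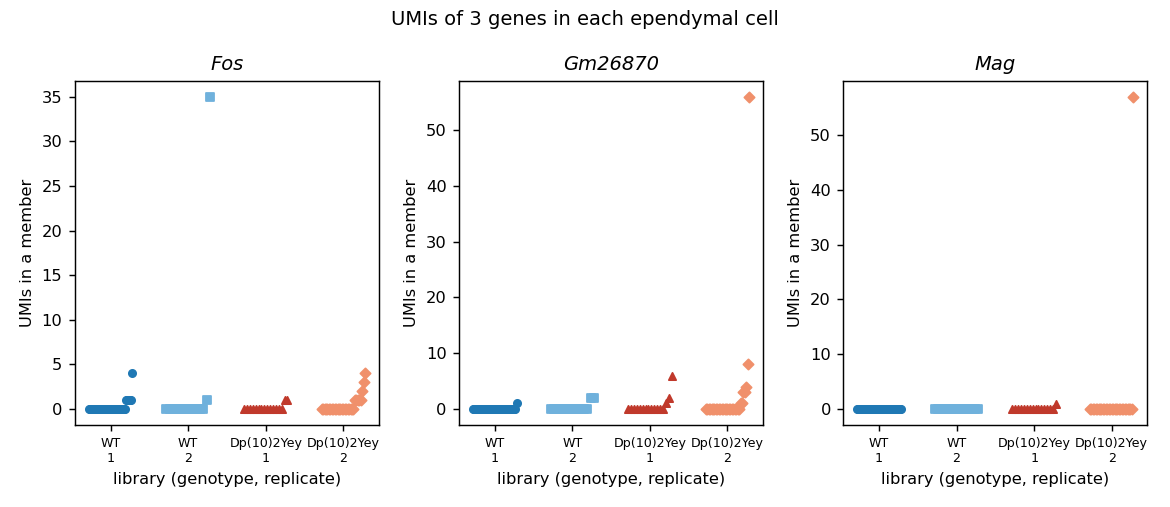
UMIs of Fos, Gm26870 and Mag in each ependymal cell, by library, with 1 point per cell. A single cell of WT replicate 2 held 35 UMIs of Fos, and single cells of Dp(10)2Yey replicate 2 held 56 UMIs of Gm26870 and 57 of Mag.

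Lists for other classes are given without the genes that the rule reads (Ttr, P2ry12, Cx3cr1, Mog, Pdgfra and Cldn5), and as the rule limits cells of these classes, low levels in members are a description. The astrocyte and choroid plexus lists kept genes that helped to define those classes, such as Slc1a2 and Folr1. Their high sums in those classes are therefore a description too. A list of 18 microglia genes, of which 17 had a UMI and none enough to be tested, summed to 416, 93.8, 10.0 and 284 in members, beside 54689, 55465, 55120 and 55163 in microglia. In WT replicate 1 the microglia list was at 1055 in the 35 members under 2000 UMIs and at 143 in the 9 deeper ones, while the cilium genes were at 25918 and 29474. The oligodendrocyte list summed to 1433, 1270, 1636 and 2744, led by Cryab, and without the member that held Mag the last value was 1387. Its median log2 fold change was 0.44 over 4 tested genes and 0.25 without the 3 members. The astrocyte list summed to 3043, 3023, 2891 and 3061, led by Aqp4, with a median of -0.01 over 8 tested genes, and was at 32064, 26715, 28993 and 33661 in astrocytes. The choroid plexus list summed to 2396, 2136, 2319 and 2272, led by 1500015O10Rik, with a median of 0.04 over 6 tested genes, against 11933, 13446, 13643 and 9134 in choroid plexus cells. The astrocyte and choroid plexus sums were thus nearly level across the 4 libraries, and the microglia sum was not. The tanycyte list summed to 462, 613, 652 and 533, and the list of oligodendrocyte precursors to 408, 354, 371 and 478. The list of endothelial and mural cells summed to 1417, 1068, 1395 and 1300, led by Acta2 at 894, 606, 934 and 751. Acta2 was also among the 20 genes of highest ratio in ependymal cells. The lists for neurons and red blood cells summed to 578, 418, 361 and 386 and to 30.8, 21.6, 30.1 and 77.3. In this order the lists had 3, 1, 3, 2 and 0 tested genes, and 0 were called, beside 0.0775% of all genes. So few tested genes give no result about these lists. The part of this RNA in the genotype comparison was not tested.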

How the data were processed

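The values were UMI counts per gene and barcode, deposited by the authors as raw counts from Cell Ranger 3.0.2 for 31055 features and 6464 barcodes, of which 183 with under 200 genes were left out. Members were taken by the rule given with the results. The members and the gene lists were chosen with earlier results of these data known. Other classes were set by marker counts (choroid plexus cells, astrocytes and microglia; 54, 1063 and 2094 cells). Choroid plexus cells were set by Ttr with Kl, Folr1, Clic6 and Kcne2, and microglia by P2ry12 and Cx3cr1. Astrocytes were set by Slc1a2, Gjb6, Ntsr2, Slc7a10 and Agt. Astrocytes and microglia also had limits on genes of other classes. UMIs of members were summed per library, as the mouse is the replicate, and genotypes were compared with edgeR 4.0.16 in R 4.3.3 (TMM, filterByExpr by genotype, robust quasi-likelihood fit, no block, Benjamini-Hochberg adjustment, threshold 0.01). The difference between members and all other cells was an interaction term on 8 sums with a term for library. Lists were described by counts and medians with no set test. Shares used an exact permutation test in scipy 1.17.1 and Clopper-Pearson intervals, which cover counting error only. Doublets were called with Scrublet in scanpy 1.11.5. The fits were tested on simulated data.

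Named genes were the genes of the rule and markers, up to 5 of each list by level, the tested genes of the segment, called genes whose genotypes did not overlap, the 20 genes of highest ratio and the 10 of highest level. Others, such as Ift46 and Nfkbia, were chosen after their values were seen. Results for some genes are not reported here. Alternatives were DESeq2 1.42.0, RLE size factors, no filter, a replicate block, other limits of the rule, each library left out, and 3 sets chosen after seeing the data. Free RNA was not estimated.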

Additional observations from a re-analysis of the deposited data

Results flagged for a closer look

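By the interaction test in edgeR 3 genes other than Ttr passed for a genotype difference in ependymal cells unlike that in all other cells, and each rested mostly on 1 member of 1 library. Mag passed with an adjusted p of 5.847e-06, on 0 and 0 UMIs in members of WT replicates 1 and 2 and 1 and 57 in those of Dp(10)2Yey replicates 1 and 2, the 57 all in 1 member, and its level in the other cells, in the same order, was 535, 701, 661 and 637 CPM. Fos passed with an adjusted p of 0.000141 and a log2 difference of -2.32, on 10, 36, 2 and 14 UMIs in members in that order, 35 of the 36 in 1 member, and was at 2952, 2578, 2348 and 2923 CPM in the other cells. Cldn11 passed with an adjusted p of 0.002327, on 28 UMIs in Dp(10)2Yey replicate 2, of which 27 were in the member with Mag, and 0 in the other libraries, and was at 554, 718, 661 and 520 CPM in the other cells. Mag and Cldn11 did not pass the filter on low counts in members alone, where nearly all of their UMIs were in 1 library. None of the 3 passed without WT replicate 2 or without Dp(10)2Yey replicate 2. Without WT replicate 2 Fos was at -1.03. Mag and Cldn11 were then at 10.72 and 10.05, beside 11.06 and 10.34 with all libraries. These 4 values are set against 0 UMIs in WT members and are no exact estimates. Without Dp(10)2Yey replicate 2 Fos was at -2.91, and members had 1 UMI of Mag and 0 of Cldn11. Cldn11 also did not pass without WT replicate 1 (adjusted p = 0.2873). With astrocytes in place of all other cells Fos passed with an adjusted p of 5.424e-05, and Mag and Cldn11 had an adjusted p of 1.0. Without the 3 members that held most UMIs of a called gene, chosen for that after these results were seen, the adjusted p of each of the 3 genes was 1.0, which follows in large part from the choice.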

How the results depend on the processing

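With 105 members and 2 libraries per genotype, few genes had enough UMIs to be tested. The number of genes called between genotypes, 2 as reported, was 0 with DESeq2, 4 with no filter on low counts, 1 with at least 8 UMIs of the 4 genes, 1 with 0 UMIs of the exclusion genes and 0 without members over 20% mitochondrial UMIs, where neither Gm26870 nor Fos was tested. Fos was not tested with at least 8 UMIs or with 0 UMIs of the exclusion genes, nor in members with at least 2000 UMIs. Of the alternatives chosen after seeing the data, members with at least 2000 UMIs gave 1 call, and leaving out the 3 members that held most UMIs of a called gene gave 0, which follows in part from their choice. Leaving out each library gave 0 to 7. The interaction test, with 4 calls, gave 7 with astrocytes in place of all other cells, where Mag and Cldn11 had an adjusted p of 1.0, and 9 at an adjusted p under 0.05, and 1 to 8 with a library left out.

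The replicate block, which pairs libraries by replicate number, gave 0 calls. The numbers were not shown to pair the libraries: the deviations of replicate 1 in both genotypes had a correlation of 0.0381 across 2579 genes, which are not independent replicates.

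The median of the segment was above 0 in each alternative run, at 0.74 with no filter (29 genes), 0.74 without members over 20% mitochondrial UMIs, 0.65 without the 3 members, and 0.70 to 0.87 with a library left out (11 to 13 genes), beside 9 genes tested otherwise. The cilium median was -0.06 to 0.07, and -0.10 to 0.10 with a library left out. The difference in share, -1.28, became -0.625 with at least 8 UMIs of the 4 genes. It was 0.263 for members with at least 2000 UMIs and 0.174 when all cells had that depth, both chosen after seeing the data, and ranged from -3.02 to 0.459 with a library left out. Pfkl was at -0.04 with at least 8 UMIs of the 4 genes and at -0.04 for members with at least 2000 UMIs, and ranged from -0.23 to 0.53 with a library left out. Agpat3 ranged from -0.20 to 0.48 in the same way. The causes were not tested. Of 200 values of named genes under an alternative, 171 kept their direction and side of the threshold, 18 lost the threshold, 5 gained it and 6 reversed. Of those reversed, 1 was the interaction of Cldn11 with 0 UMIs left in members and is no estimate. Most of the 171 belonged to genes that did not pass and so had no call to lose. All 18 losses were of results that passed. In members Fos lost its call in 4 alternatives and kept it in 6, and Gm26870 lost it in 3 and kept it in 9. By the interaction test Mag lost it in 4 and kept it in 3, Cldn11 in 4 and 2, and Fos in 3 and 4. Fos and Gm26870 could not be fitted where too few UMIs remained.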

Other observations

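Chaperone genes had high levels in ependymal cells, given as a description, and the genotypes overlapped in the sum of the list. The list of 25 heat shock genes summed to 17448, 12287, 15318 and 17193 CPM in members of WT replicates 1 and 2 and Dp(10)2Yey replicates 1 and 2. In astrocytes it summed to 3663, 3328, 3854 and 3771. It was at 7280, 5692, 7497 and 6436 in all other cells and at 8074, 4468, 9055 and 7740 in choroid plexus cells. Hsp90aa1, a cytosolic chaperone, was at 6925, 4697, 5400.3 and 5683 in members, with WT replicates the highest and the lowest. Of 18 tested genes 12 had a log2 fold change above 0, beside 50% of all genes tested, with a median of 0.24. Both Dp(10)2Yey libraries were above both WT ones for 5, beside 17.7% of all genes, and below them for 1, beside 12.9%. By edgeR 0 were called, with 1 (Ahsa1, a partner of Hsp90) at an unadjusted p under 0.05 beside 3.72%. The list of metallothionein and glucocorticoid-response genes was led by the zinc-binding Mt3 at 10415, 12280, 12638 and 15711. It summed to 19890, 22258, 23729 and 26032, with both Dp(10)2Yey libraries the higher. They were also the higher in all other cells (4864, 4788, 5572 and 6054) and in astrocytes (17420, 16748, 18432 and 19657). The median over 6 tested genes was 0.00, and 1 (Nfkbia, lower in Dp(10)2Yey) had an unadjusted p under 0.05. Antigen presentation and interferon genes summed to 2272, 1804, 1586 and 2004, led by Ifitm3, with a median of 0.19 over 5 tested genes. In WT replicate 1, 22 of the 28 UMIs of Ifit1 were in 1 member.

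Mitochondrially encoded genes summed to 91368, 105271, 107695 and 65889 CPM in members, the lowest in Dp(10)2Yey replicate 2, and to 61441, 67163, 69728 and 39733 in all other cells, where the same library was the lowest. Of 13 tested genes 11 had a fold change below 0, beside 50% of all genes tested, with a median of -0.14, and 0 were called by edgeR, with 1 at an unadjusted p under 0.05 beside 3.72%. Gm42418, which is annotated as a long non-coding RNA, was at 38046, 27892, 41105 and 7091 in members and at 15287, 19190, 10846 and 7783 in the other cells, again lowest in Dp(10)2Yey replicate 2. Stoml3 was at 208, 173, 311 and 240 in members, and in the other cells of WT replicate 1 42 of its 48 UMIs were in 2 cells. The interaction test for Stoml3 had an adjusted p of 0.01284 by edgeR, and the adjusted p over its alternatives was 2.025e-09 to 1.0. For 20 genes 1 member held at least 20 UMIs and over 50% of those in the members of its library. In 9 of these it was the member of WT replicate 2 with 37374 UMIs, where 41 of the 52 UMIs of the filament gene Gfap lay.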
